A study of Mus musculus with 6 samples.

Results

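The genes described here are the metallothioneins and the zinc transport genes of mouse liver, 8 genes taken by name from the 55487 genes in the deposited tables. They are the metallothioneins Mt1 and Mt2, the zinc-sensing transcription factor Mtf1, the exporters Slc30a1 and Slc30a10, and the importers Slc39a4, Slc39a8 and Slc39a14. Poly(A) RNA was sequenced from frozen liver pieces of 20 mg, taken from male mice of 8 weeks on standard chow. The SCADD group held 3 mice of the inbred substrain BALB_cBYJ, which lacks functional short-chain acyl-CoA dehydrogenase. This enzyme, encoded by Acads, carries out the opening step of mitochondrial butyrate oxidation. The WT group held 3 mice of the related inbred substrain BALB_cJ. Genotype and substrain coincided in all 6 mice, so the enzyme defect and every other variant between the substrains cannot be told apart.

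Metallothioneins are small, cysteine-rich proteins that bind zinc and copper, and the liver is one of their main sites of synthesis. Zinc bound by MTF1 directs this factor to metal response elements in gene promoters, and the metallothionein genes and the exporter gene Slc30a1 are its best known targets. Metallothionein genes are also induced in liver by glucocorticoids, inflammation and fasting. Transporters of the SLC30 family move zinc out of the cytosol, and those of the SLC39 family move it in.

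Reads counted in genes totalled 16948986 to 23912744 in the SCADD libraries and 23991104 to 27148756 in the WT libraries, and unmapped reads made up 25.1% to 36.6% in SCADD and 13.6% to 16.4% in WT. SCADD replicate 3 had the lowest total and the highest unmapped share. Acads itself stood at 99.3, 104 and 97.0 CPM in the SCADD livers and 185, 166 and 196 CPM in the WT livers. All 10 hepatocyte marker genes were detected, with a summed level of 101170 to 140930 CPM in SCADD and 109480 to 159980 CPM in WT. Most of this sum was Alb, at 79586 to 117370 CPM in SCADD and 86355 to 135290 CPM in WT. One of the 10 passed the test, the urea cycle enzyme gene Cps1, at 1070 to 1314 CPM in SCADD and 2258 to 2442 CPM in WT (log2 fold change -0.97, adjusted p = 0.00728 by edgeR, and 0.0504 without WT replicate 2). The groups also did not overlap in CPM for Asgr1, lower in SCADD, and for Cyp2e1 and Hnf4a, higher in SCADD, which did not pass. CPM here are stranded reads per 1000000 reads counted in genes, with library sizes scaled by TMM.

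Promoter windows from RefSeq (GRCm38.p6) were used for 6 of the 8 genes, all but Slc39a4 and Slc39a14, each running from 250 bases before the annotated start to 50 bases after it. The windows of Mt1 (chr8:94178839-94179138), Mt2 (chr8:94172368-94172667) and Slc30a1 (chr1:191906531-191906830), all on the + strand, are printed because they belong to the pair of genes that changed and to the textbook MTF1 target that did not pass the test. Capitals mark matches, on either strand, to the metal response element cores TGCACNC and TGCGCNC.
Mt1: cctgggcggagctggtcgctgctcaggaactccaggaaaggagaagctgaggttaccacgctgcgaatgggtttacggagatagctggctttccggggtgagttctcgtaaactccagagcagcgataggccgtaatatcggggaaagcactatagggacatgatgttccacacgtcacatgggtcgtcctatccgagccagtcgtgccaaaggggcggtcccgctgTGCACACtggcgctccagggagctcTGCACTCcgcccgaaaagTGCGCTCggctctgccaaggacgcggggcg
Mt2: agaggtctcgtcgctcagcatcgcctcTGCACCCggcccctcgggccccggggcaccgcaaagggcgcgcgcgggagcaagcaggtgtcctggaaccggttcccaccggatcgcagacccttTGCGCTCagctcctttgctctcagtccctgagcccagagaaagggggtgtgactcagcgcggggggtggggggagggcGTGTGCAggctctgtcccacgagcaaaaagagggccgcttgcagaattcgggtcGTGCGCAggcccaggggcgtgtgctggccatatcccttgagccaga
Slc30a1: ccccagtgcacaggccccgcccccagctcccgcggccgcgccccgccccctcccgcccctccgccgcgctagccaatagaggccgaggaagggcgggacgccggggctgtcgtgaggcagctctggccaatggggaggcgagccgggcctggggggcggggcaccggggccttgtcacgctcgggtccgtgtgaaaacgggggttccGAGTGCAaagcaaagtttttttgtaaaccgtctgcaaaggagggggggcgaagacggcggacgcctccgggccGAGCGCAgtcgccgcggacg
Mt2 held 4 cores, a number reached by 0.517% of 32851 RefSeq windows of the same length. Mt1 held 3 and Slc30a10 held 3, a number reached by 1.97% of windows, and a pair of those in Slc30a10 overlapped on opposite strands. Slc30a1 held 2, a number reached by 7.11% of windows. One of the 2 Slc39a8 windows held 1 core and the other 0, the Mtf1 window held 0, and 25.7% of all windows held at least 1. The antioxidant response element core TGACNNNGC occurred once each in Mt2, Slc30a1 and a Slc39a8 window, and 12.4% of windows held it. The Mt1 cores began at -23, 2 and 20 relative to the annotated start. Bases outside the windows were not searched, so a motif missing here may still lie elsewhere in a promoter. These matches are letters in a window and were not measured as bound sites.

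Mt1 and Mt2 were both far lower in the SCADD livers than in the WT livers. Mt1 (ENSMUSG00000031765, chromosome 8, 94179082 to 94180327 on GRCm38, + strand) had 43.3, 17.1 and 29.6 CPM in SCADD replicates 1, 2 and 3, against 166, 158 and 140 CPM in WT replicates 1, 2 and 3. These values rest on 1061, 363 and 477 reads in SCADD and 4594, 3625 and 3732 reads in WT. The highest SCADD liver was well under the lowest WT liver. Means were 30.0 ± 13.1 CPM in SCADD and 155 ± 13.4 CPM in WT (SD, n = 3 each). Mt1 fell to 0.194 of the WT level, a log2 fold change of -2.37 (SE 0.29) with an adjusted p of 0.00218 by edgeR's quasi-likelihood test over all 13498 genes tested. In whole liver, fewer cells carrying a transcript and less of it per cell cannot be told apart.

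Mt2 (ENSMUSG00000031762, chromosome 8, 94172664 to 94173568, + strand) had 24.6, 5.76 and 17.7 CPM in SCADD replicates 1, 2 and 3, against 199, 212 and 181 CPM in the WT replicates. The reads behind them numbered 603, 122 and 286 in SCADD and 5511, 4849 and 4830 in WT. SCADD replicate 2 was the lowest liver for both genes and replicate 1 the highest of the SCADD group. Means were 16.03 ± 9.54 CPM in SCADD and 198 ± 15.4 CPM in WT (SD, n = 3 each). Mt2 fell to 0.0813 of the WT level, with a log2 fold change of -3.62 (SE 0.50) and an edgeR adjusted p of 0.0101.

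**Figure D1:**
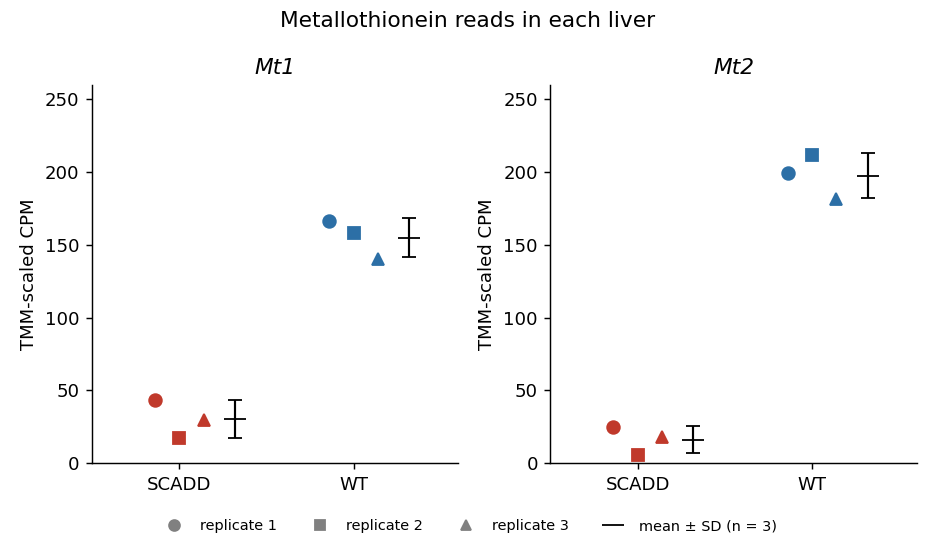
TMM-scaled CPM of Mt1 and Mt2 in each of the 3 SCADD and 3 WT livers, with the mean and SD of each group beside the points. All SCADD livers lie below all WT livers, at most 43.3 CPM for Mt1 and 24.6 CPM for Mt2.

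Among all genes tested, ordered from the most negative log2 fold change, Mt2 had rank 17 and Mt1 rank 47. Both calls were lost when SCADD replicate 3 was left out, although the values hardly moved, at -2.35 for Mt1 (adjusted p = 0.0512) and -3.69 for Mt2 (adjusted p = 0.0811) by the same edgeR test. Without a filter on low counts the edgeR adjusted p of Mt2 was 0.058. A predicted antisense gene, Gm45774, overlaps Mt2, but the opposite-strand column held only 0 to 2 reads per library for Mt1 and for Mt2. With the unstranded column the log2 fold change of Mt2 was -3.37. RSEM expected counts, which also share out reads that map to several genes, gave log2 fold changes of -2.42 for Mt1 and -3.64 for Mt2.

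**Figure D2:**
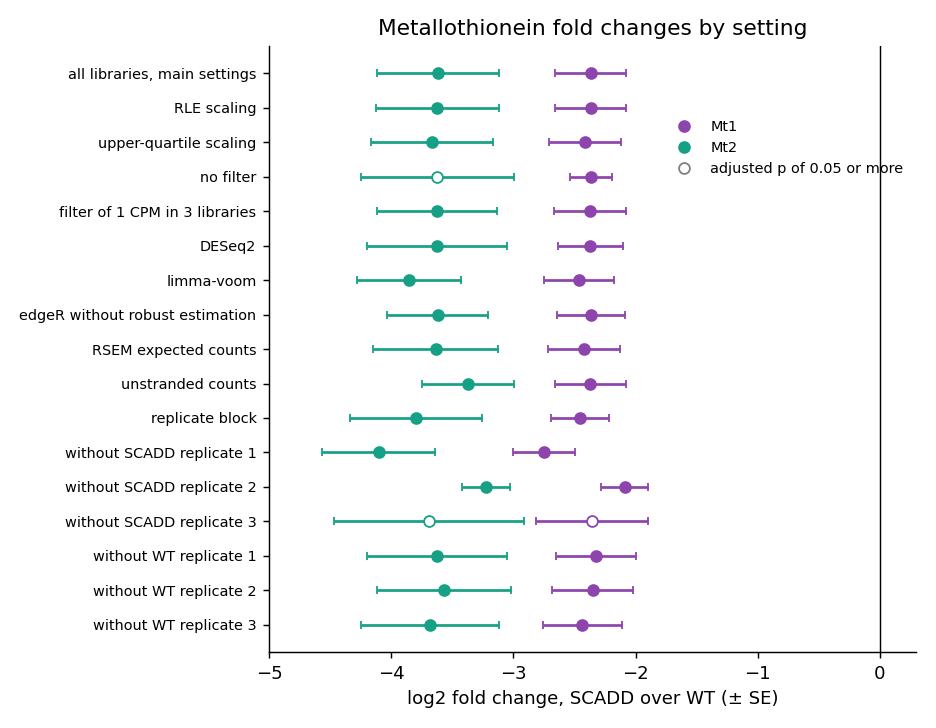
Log2 fold change of SCADD over WT (± SE) for Mt1 and Mt2 under the main settings and 16 alternatives, with open points where the adjusted p was 0.05 or more. Every estimate is below 0, from -2.75 to -2.09 for Mt1 and from -4.10 to -3.22 for Mt2.

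The order of the metallothionein pair was opposite in the groups. In TPM, a unit per transcript length that allows genes to be compared, Mt1 had 98.1, 40.9 and 46.9 in SCADD livers, against 406, 352 and 303 in WT livers. Mt2 had 65.4, 15.9 and 34.5 TPM in SCADD livers, against 553, 541 and 447 TPM in WT livers. Mt1 was thus the higher of the pair in each SCADD liver and Mt2 in each WT liver. The ratio of Mt2 to Mt1 TPM was 0.667, 0.389 and 0.735 in SCADD and 1.36, 1.54 and 1.47 in WT, with means of 0.597 ± 0.183 in SCADD and 1.46 ± 0.0896 in WT (SD, n = 3 each). The log2 ratio differed by -1.34, SCADD minus WT, and p was 0.1 by an exact permutation test, two-sided, the smallest p that 3 against 3 livers allow. This ratio was chosen after its values were seen. Together the pair summed to 164, 56.8 and 81.4 TPM in SCADD livers and 960, 893 and 750 TPM in WT livers.

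None of the other 6 genes passed the test. Across all genes 7.02% passed it, 2.80% lower and 4.22% higher in SCADD (378 and 569 genes, or 482 and 470 with upper-quartile scaling), while of the 8 genes here 2 passed, both lower. The median log2 fold change was -0.16 over the 8, -0.04 over the 6 without Mt1 and Mt2, and -0.00078 over all genes tested. SCADD and WT livers did not overlap in CPM for Mt1, Mt2 and Slc30a1, that is for 3 of 8 genes, beside 28.0% of all genes. All 8 genes passed the filter on low counts.

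Mtf1 (ENSMUSG00000028890, chromosome 4, 124802104 to 124849800), which encodes the zinc sensor itself, had 7.38, 7.36 and 5.65 CPM in SCADD livers and 6.37, 6.51 and 6.38 CPM in WT livers. The SCADD livers lay on both sides of the narrow WT range. Its log2 fold change was 0.09 ± 0.17 (SE; adjusted p = 0.811 by edgeR). Mtf1 overlaps a gene on the opposite strand, 1110065P20Rik, and with the unstranded column of counts the log2 fold change of Mtf1 was 0.10.

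Slc30a1 (ENSMUSG00000037434, chromosome 1, 191906767 to 191913247), the exporter of the plasma membrane, had 30.3, 32.3 and 30.5 CPM in SCADD livers and 28.4, 20.0 and 26.0 CPM in WT livers. All SCADD values were above all WT values in CPM, but the gap was small beside the spread in WT. In TPM the groups overlapped, with SCADD replicate 3 at 4.33 and WT replicate 1 at 5.64. Means were 31.0 ± 1.08 CPM in SCADD and 24.8 ± 4.33 CPM in WT (SD, n = 3 each), a fold change of 0.32 ± 0.15 on the log2 scale (SE; adjusted p = 0.226 by edgeR). Slc30a10 (ENSMUSG00000026614, chromosome 1, 185454848 to 185468762), a family member known chiefly as a manganese exporter, had 40.5, 30.5 and 31.3 CPM in SCADD livers and 39.1, 37.1 and 32.3 CPM in WT livers. These groups overlapped, and the log2 fold change was -0.08 ± 0.15 (SE; adjusted p = 0.796 by edgeR).

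Of the importers, Slc39a4 (ENSMUSG00000063354, chromosome 15, 76612383 to 76617384, - strand) is best known as the carrier of dietary zinc in the gut, and its difference depended on a single liver. It had 7.18, 14.01 and 7.57 CPM in SCADD replicates 1, 2 and 3, against 13.5, 13.4 and 11.9 CPM in the WT replicates. SCADD replicate 2 was the highest of all 6 livers and the other 2 SCADD livers were the lowest. Means were 9.59 ± 3.84 CPM in SCADD and 12.9 ± 0.867 CPM in WT (SD, n = 3 each), with a fold change of -0.43 ± 0.24 on the log2 scale (SE; adjusted p = 0.319 by edgeR). Without SCADD replicate 2 the log2 fold change was -0.82 and the edgeR adjusted p 0.0119.

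Slc39a8 (ENSMUSG00000053897, chromosome 3, 135825279 to 135888572), a carrier of zinc, manganese and cadmium, had 32.1, 33.9 and 28.7 CPM in SCADD livers and 39.1, 40.7 and 32.3 CPM in WT livers. The groups overlapped, with a fold change of -0.24 ± 0.14 on the log2 scale (SE; adjusted p = 0.329 by edgeR). Slc39a14 (ENSMUSG00000022094, chromosome 14, 70303469 to 70351425, - strand), an importer of zinc, manganese and non-transferrin-bound iron in hepatocytes, had 83.5, 95.4 and 59.7 CPM in SCADD livers and 68.4, 76.7 and 91.7 CPM in WT livers. SCADD replicates held both the highest and the lowest value of all livers, and the log2 fold change was 0.01 ± 0.18 (SE; adjusted p = 0.979 by edgeR).

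**Figure D3:**
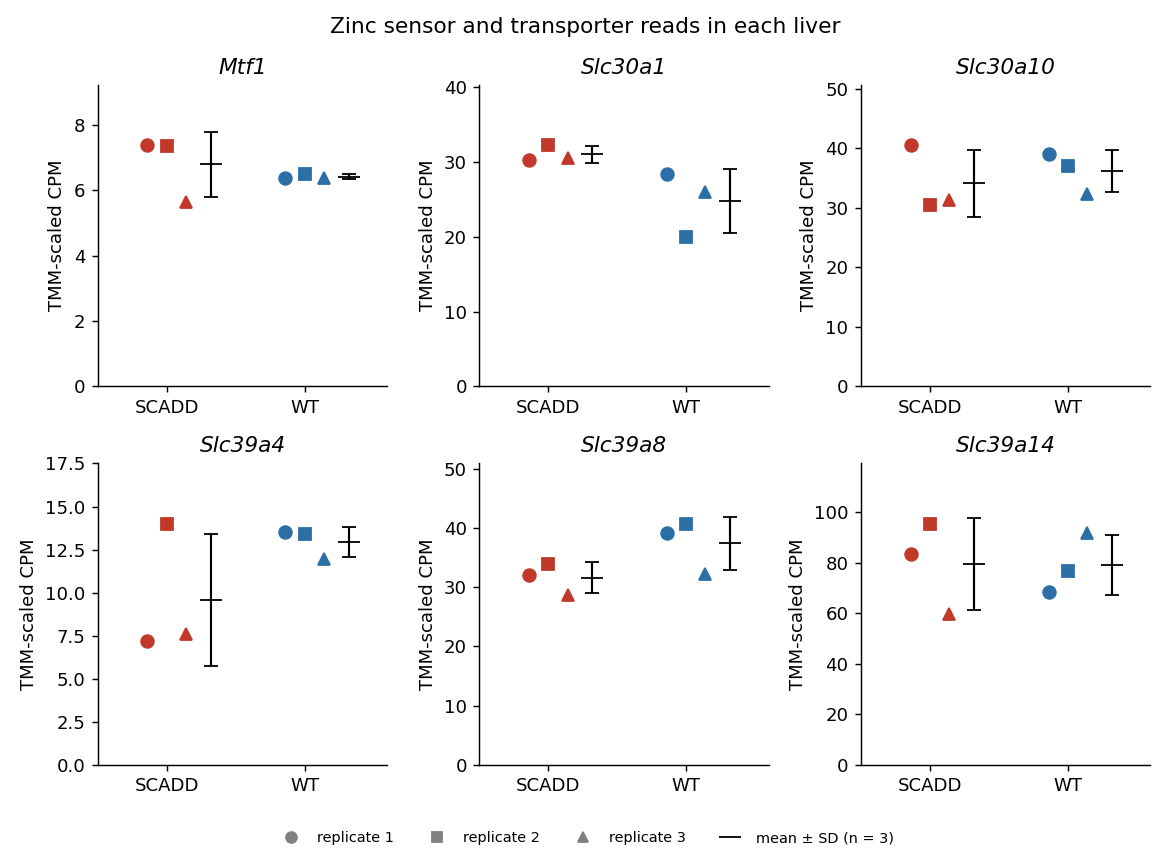
TMM-scaled CPM of Mtf1, Slc30a1, Slc30a10, Slc39a4, Slc39a8 and Slc39a14 in each of the 3 SCADD and 3 WT livers, with group means and SDs and a separate axis from 0 for each gene. SCADD and WT points overlap for every gene but Slc30a1, and SCADD replicate 2 stands at 14.01 CPM for Slc39a4 beside 7.18 and 7.57 CPM in the other SCADD livers.

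By TPM, the order in SCADD livers was Mt1 at 61.9 ± 31.4, Mt2 at 38.6 ± 25.0, Slc39a14 at 19.4 ± 7.66, Slc39a8 at 9.59 ± 2.24, Slc30a10 at 5.93 ± 1.62, Slc30a1 at 5.52 ± 1.10, Slc39a4 at 4.66 ± 2.16 and Mtf1 at 2.16 ± 1.04 (SD, n = 3). Every pair of neighbours in that order overlapped in range, save Slc39a4 and Mtf1. In WT livers it was Mt2 at 514 ± 58.4, Mt1 at 354 ± 51.6, Slc39a14 at 19.9 ± 1.58, Slc39a8 at 11.4 ± 1.55, Slc30a10 at 7.15 ± 1.27, Slc39a4 at 5.63 ± 0.787, Slc30a1 at 4.63 ± 0.968 and Mtf1 at 2.15 ± 0.333 TPM (SD, n = 3). There only Slc30a10, Slc39a4 and Slc30a1 overlapped with their neighbours. Mt2 and Slc39a14 ranges were thus separate in WT livers and overlapped in SCADD livers.

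The remaining metallothionein, SLC30 and SLC39 genes numbered 21, of which 15 passed the filter on low counts. Of these, 0 passed the edgeR test, beside 7.02% of all genes tested. At an unadjusted p under 0.05 there were 3, of which 1 was higher and 2 were lower in SCADD, and DESeq2 and limma-voom each also called 0. Their median log2 fold change was -0.07, with a range of -0.75 to 0.78. SCADD and WT livers did not overlap in CPM for 4 of the 15, a share near the 28.0% of all genes. The smallest adjusted p was that of Slc39a9, an importer of the Golgi and plasma membrane, with 41.5, 43.1 and 34.5 CPM in SCADD livers and 32.3, 29.3 and 26.9 CPM in WT livers. All SCADD values exceeded the WT values in CPM, and the log2 fold change was 0.43 ± 0.14 (SE; adjusted p = 0.0882 by edgeR). In TPM the Slc39a9 groups overlapped, with SCADD replicate 3 at 5.37 and WT replicate 1 at 6.54. Without SCADD replicate 3 the edgeR adjusted p of Slc39a9 was 0.0226, which made it the 1 called gene of the 15 in that fit.

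Slc30a6, which loads zinc into the Golgi, had 11.5, 10.4 and 7.38 CPM in SCADD livers and 12.7, 15.96 and 13.4 CPM in WT livers, a fold change of -0.51 ± 0.18 on the log2 scale (SE; adjusted p = 0.12 by edgeR). All its SCADD values were under its WT values. The metallothioneins Mt3 and Mt4 and the exporter Slc30a2 had 0 counted reads in all 6 libraries, which allows up to 0.111 to 0.177 CPM per library at a limit of 3 reads, for counting error only. For Slc30a2 RSEM assigned 6 expected counts, listed as 0.03, 0.06 and 0.02 TPM in SCADD livers and 0 in WT livers, and the opposite-strand column held 5, 3 and 1 reads in SCADD and 1, 0 and 0 in WT. Slc39a7 is uncertain, since the unique-read tables held 98 reads for it over the 6 libraries and RSEM assigned it 4641 expected counts. By RSEM it stood at 14.5 ± 2.95 TPM in SCADD and 19.7 ± 2.28 TPM in WT (SD, n = 3 each), and edgeR on the RSEM expected counts put the change at -0.32 ± 0.12 on the log2 scale (SE; adjusted p = 0.132).

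**Figure D4:**
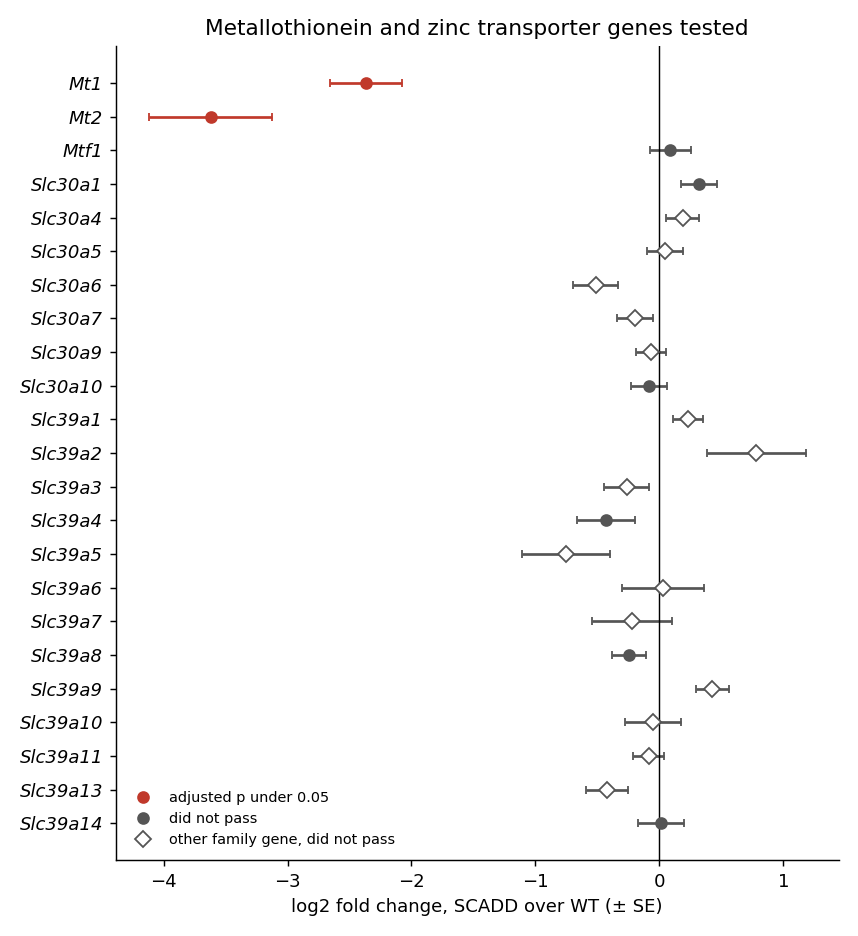
Log2 fold change of SCADD over WT (± SE) for the 8 genes described here (filled circles) and the 15 further tested metallothionein, SLC30 and SLC39 genes (open diamonds). Mt1 and Mt2, at -2.37 and -3.62, stand apart from the rest, which lie between -0.75 and 0.78.

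Mt1 and Mt2 lie next to each other on chromosome 8, with 5.51 kb from the end of Mt2 to the start of Mt1. Within 500 kb of the pair, 16 of 35 annotated neighbours passed the filter. Of these, 0 were called higher and 1 lower, a share near the 7.02% of all genes called. The nearest tested neighbours differed between the groups by less than their standard errors. Bbs2, a ciliary transport subunit 73.7 kb away, had a fold change of -0.01 ± 0.25 on the log2 scale (SE; adjusted p = 0.993 by edgeR), and Nup93, a nuclear pore subunit 34.2 kb away on the other side, one of 0.05 ± 0.28 (log2, SE; adjusted p = 0.944 by edgeR). The called neighbour was Arl2bp, named after its value was seen, 486 kb away and scarce at 0.378 ± 0.162 CPM in SCADD and 1.76 ± 0.832 CPM in WT (SD, n = 3 each). Its log2 fold change was -2.27 ± 0.44 (SE; adjusted p = 0.0126 by edgeR), and -2.03 with an adjusted p of 0.055 without SCADD replicate 1.

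**Figure D5:**
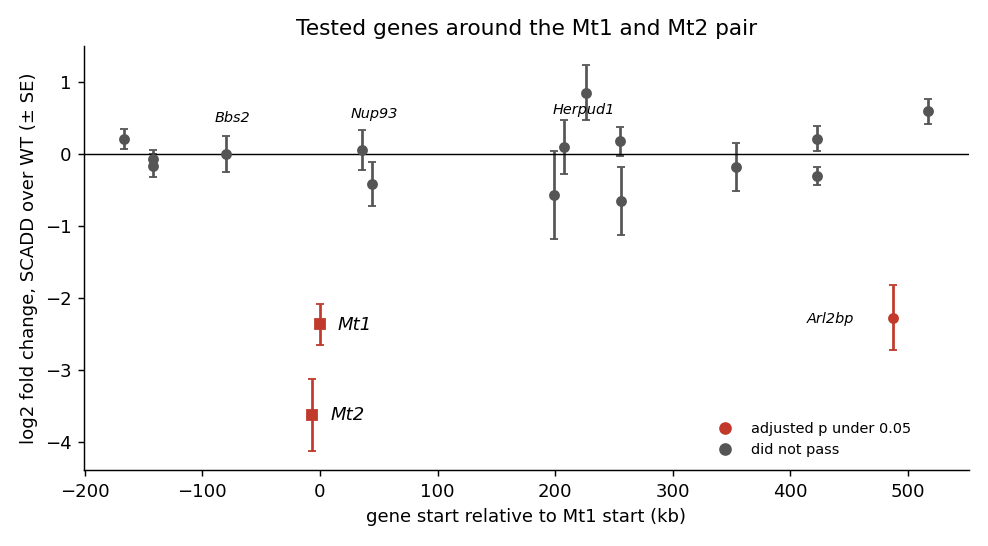
Log2 fold change of SCADD over WT (± SE) of each tested gene within 500 kb of Mt1 and Mt2, against the distance of its start from the start of Mt1. Red marks an adjusted p under 0.05, which Mt1, Mt2 and the distant Arl2bp reached, while Bbs2 and Nup93 lie near 0.

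Within the SCADD group, Mt1 and Mt2 varied together. In WT the highest liver was replicate 1 for Mt1 but replicate 2 for Mt2. Over the 6 libraries, the deviations of log2 CPM from the group mean had a Pearson r of 0.972 between Mt1 and Mt2. This r rests mostly on the SCADD livers, whose deviations were far larger than those of the WT livers. Beside Mt2, the genes most like Mt1 by this measure included Rasgef1b (0.963), Arsg (0.953) and Pdk4 (0.941), among 196 genes that met the minimum level and spread. Those most like Mt2 were Arsg (0.976), Elovl3 (0.968), Pdk4 (0.947), Rasgef1b (0.921) and Igfbp1 (0.919), among 195. The points are the same 6 libraries for every gene, so these r values are a description. Pdk4, the kinase that restrains pyruvate oxidation, shows the shape, at 156, 29.6 and 124 CPM in SCADD replicates 1, 2 and 3 and 21.7, 18.1 and 10.5 CPM in the WT replicates. As for Mt1 and Mt2, SCADD replicate 1 was the highest SCADD liver and replicate 2 the lowest, yet the SCADD livers lay above the WT livers for Pdk4, which did not pass the test (log2 fold change 2.61 ± 0.66 SE, adjusted p = 0.0788 by edgeR), and below them for the metallothioneins. Arsg, which encodes a lysosomal sulfatase, lay below like the metallothioneins, at 75.9, 27.6 and 61.9 CPM in SCADD replicates 1, 2 and 3 and 164, 140 and 152 CPM in the WT replicates (log2 fold change -1.46 ± 0.32 SE, adjusted p = 0.0324 by edgeR). The Arsg call was lost without SCADD replicate 3 or any one WT replicate (0.0794 to 0.153).

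Genes listed as MTF1 targets did not move one way. Of 11 such genes 10 were tested, 3 fell (Mt1, Mt2 and Csrp1) and 1 rose (Hamp), beside 2.80% and 4.22% of all genes, with a median log2 fold change of 0.13. Of the 3 that fell, Mt1 and Mt2 are the genes described above. Csrp1, which encodes a LIM-domain protein with zinc fingers, had 4.24, 3.40 and 4.59 CPM in SCADD livers and 7.96, 5.90 and 6.79 CPM in WT livers, a fold change of -0.76 ± 0.19 on the log2 scale (SE; adjusted p = 0.0389 by edgeR). Hamp, which encodes the iron hormone hepcidin, had 453, 595 and 277 CPM in SCADD livers and 247, 126 and 134 CPM in WT livers, a fold change of 1.38 ± 0.33 on the log2 scale (SE; adjusted p = 0.0416 by edgeR). For neither gene did the groups overlap in CPM. In TPM they overlapped for Hamp, with SCADD replicate 3 at 768 and WT replicate 1 at 974. The Csrp1 call was lost without any one library other than SCADD replicate 3 (adjusted p 0.07 to 0.113), and the Hamp call without SCADD replicate 1 or 2 or WT replicate 2 or 3 (0.122 to 0.14). With RSEM expected counts the edgeR adjusted p was 0.0841 for Csrp1 and 0.0508 for Hamp, and with upper-quartile scaling 0.0512 for Hamp. The count lower was 1 without SCADD replicate 3 and 2 without any other single library, and the count higher was 0 to 2.

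The copper-handling and zinc-binding genes that passed were all higher in SCADD livers. Of 13 tested copper-handling genes 3 rose and 0 fell, where 4.22% of all genes rose, with a median log2 fold change of 0.23. Of 14 genes listed as zinc enzymes and zinc-binding proteins 2 rose and 0 fell, with a median of 0.49. The zinc list is loose and includes Gpd1 and Fbp1, which are not typical zinc enzymes. Sod1, the cytosolic copper-zinc superoxide dismutase and a member of both lists, had 423, 509 and 416 CPM in SCADD livers and 265, 256 and 284 CPM in WT livers, a fold change of 0.75 ± 0.15 on the log2 scale (SE; adjusted p = 0.0145 by edgeR). Steap2, a metalloreductase, averaged 2.68 ± 0.627 CPM in SCADD and 0.902 ± 0.127 CPM in WT (SD, n = 3 each; log2 fold change 1.58 ± 0.27 SE, adjusted p = 0.00681 by edgeR), and its call held without any single library. The copper chaperone Atox1 averaged 44.6 ± 7.72 CPM in SCADD and 28.4 ± 4.10 CPM in WT (SD, n = 3 each; log2 fold change 0.65, edgeR adjusted p = 0.0365). Carbonic anhydrase Car2, a zinc enzyme, averaged 3.65 ± 0.473 CPM in SCADD and 1.79 ± 0.248 CPM in WT (SD, n = 3 each; log2 fold change 1.03, edgeR adjusted p = 0.0182). Calls were lost for Sod1 without SCADD replicate 1 or any one WT replicate (adjusted p 0.0501 to 0.095), for Atox1 without any one library but SCADD replicate 3 (0.0528 to 0.144), and for Car2 without SCADD replicate 1 or WT replicate 2 or 3 (0.0681 to 0.0918). Leaving out 1 library gave 1 to 4 higher copper genes and 0 to 3 higher zinc enzyme genes, with 1 copper and 1 zinc enzyme gene lower without SCADD replicate 2.

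Lists of genes that respond to the other known inducers of metallothioneins were counted as well. Among 14 tested glucocorticoid-responsive genes 1 rose and 0 fell, a share near the 7.02% of all genes called, and the median log2 fold change was 0.01. That gene was Lcn2, which encodes lipocalin-2 and is also an acute-phase gene, with 1.84, 2.26 and 2.11 CPM in SCADD livers and 0.506, 0.656 and 0.863 CPM in WT livers (log2 fold change 1.61 ± 0.29 SE, adjusted p = 0.0085 by edgeR). Its call held without any single library. At an unadjusted edgeR p under 0.05 there were 3 genes of this list, of which 1 was higher and 2 were lower. Some members varied widely within groups, so that a change in them would be hard to call. Fkbp5, for instance, had 59.5, 56.4 and 32.1 CPM in SCADD livers and 11.9, 71.1 and 64.6 CPM in WT livers (log2 fold change 0.01 ± 0.65 SE). Among 21 tested acute-phase genes 2 rose, Lcn2 and Hamp, and 1 fell, beside 4.22% and 2.80% of all genes, with a median of 0.06. The gene that fell was Itih3, a plasma protease inhibitor heavy chain, at 348 ± 72.3 CPM in SCADD and 562 ± 27.5 CPM in WT (SD, n = 3 each; log2 fold change -0.69, edgeR adjusted p = 0.0443), a call lost without SCADD replicate 1 or 2 or any one WT replicate (0.0523 to 0.149) and with RSEM expected counts (0.0517).

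Among 13 tested fasting-response genes 0 rose and 2 fell, beside 4.22% and 2.80% of all genes, with a median log2 fold change of -0.22. The list's highest log2 fold change was that of Pdk4, given above, which did not pass, and limma-voom called 1 member higher and DESeq2 2. Ppargc1a, the coactivator PGC-1-alpha, had 4.65, 6.18 and 3.60 CPM in SCADD livers and 11.4, 24.7 and 15.3 CPM in WT livers (log2 fold change -1.82 ± 0.30 SE, adjusted p = 0.00744 by edgeR). Every SCADD liver was under every WT liver, and without SCADD replicate 3 the edgeR adjusted p was 0.0516. Sesn1, a stress-responsive regulator of nutrient signalling, averaged 7.56 ± 0.904 CPM in SCADD and 12.2 ± 1.22 CPM in WT (SD, n = 3 each; log2 fold change -0.69, edgeR adjusted p = 0.0248). The Sesn1 call was lost without SCADD replicate 1 or any one WT replicate (0.07 to 0.11).

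Markers of other cell types were counted beside these results, and their part in them was not tested. The summed level of 8 Kupffer cell markers was 159 to 274 CPM in SCADD and 197 to 271 CPM in WT, and that of 8 stellate cell and fibroblast markers 320 to 666 CPM in SCADD and 417 to 602 CPM in WT. The sums did not overlap for 8 sinusoidal endothelial markers, at 121 to 187 CPM in SCADD and 194 to 201 CPM in WT, for 6 cholangiocyte markers, at 33.5 to 43.8 CPM in SCADD and 48.3 to 54.8 CPM in WT, and for 7 lymphocyte markers, at 14.5 to 18.2 CPM in SCADD and 8.18 to 10.7 CPM in WT. The higher lymphocyte sum came from Ighm, an immunoglobulin heavy chain, at 12.7 to 15.7 CPM in SCADD and 6.11 to 7.36 CPM in WT (log2 fold change 1.13, adjusted p = 0.0021 by edgeR), while the other 3 tested lymphocyte markers, none of which passed, had log2 fold changes of -0.57 to -0.49. Much of the endothelial sum was Clec4g, at 53.8 to 104 CPM in SCADD and 112 to 117 CPM in WT. Clec4g did not pass the test (log2 fold change -0.62, adjusted p = 0.11 by edgeR). Of the 8 endothelial markers 6 had negative log2 fold changes and 2 positive ones, Stab2 (0.28) and Cdh5 (0.12). Lyve1 was the endothelial marker called, at 2.30 to 2.61 CPM in SCADD and 3.80 to 8.63 CPM in WT (log2 fold change -1.40, adjusted p = 0.0153 by edgeR, and 0.0703 and 0.0625 without WT replicates 2 and 3). Most of the cholangiocyte sum was Spp1, which did not pass (log2 fold change -0.45, adjusted p = 0.0987 by edgeR). The 6 neutrophil markers summed to 2.59 to 9.18 CPM in SCADD and 2.44 to 4.16 CPM in WT. Of 8 pancreatic acinar markers 6 were at 0 in all libraries, and the sum reached 0.0472 CPM in SCADD and 0 in WT. Of 8 intestinal markers Cdx1, Cdx2, Muc2, Sis and Alpi were at 0 in all libraries. The other 3 brought the sum to 331 to 820 CPM in SCADD and 254 to 320 CPM in WT, also without overlap. Most of that sum was Fabp2, at 311 to 801 CPM in SCADD and 242 to 306 CPM in WT. Fabp2 did not pass the test (log2 fold change 1.05, adjusted p = 0.0641 by edgeR). Lgals4 was the intestinal marker called, at 19.2 to 21.3 CPM in SCADD and 12.2 to 14.1 CPM in WT (log2 fold change 0.64, adjusted p = 0.0147 by edgeR, and 0.0652 to 0.0872 without SCADD replicate 1, WT replicate 1 or WT replicate 2).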

How the data were processed

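Liver RNA of 3 SCADD and 3 WT mice was analysed. Per the submitters' processing notes, STAR 2.7.6a, RSEM 1.3.3 and GRCm38 were used; the annotation release is not given in the sources used here. The authors deposited raw STAR counts per gene, not normalized, in an unstranded and 2 stranded columns, and RSEM expected counts with TPM, which sum to an equal total per library. The deposited FPKM were not used. Column 4, with 96.8% to 97.3% of stranded reads, was taken. The gene totals leave out reads mapped to several places (10.1% to 13.1%) and those outside genes (1.47% to 2.17%). Of 55487 gene IDs, 55227 matched GENCODE M21.

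Genes were filtered by filterByExpr, given TMM factors and fitted in R 4.3.3 with edgeR 4.0.16 (robust glmQLFit, group as the only term), with Benjamini-Hochberg adjustment across 13498 genes and a threshold of 0.05. Each SE was approximated from the fold change and its quasi-likelihood F value. TPM are the deposited values. Expected counts were rounded for the RSEM alternative. The test was also checked on simulated data. It recovered 28% of genes changed 1.5-fold, 76% of those changed 2-fold and 100% of those changed 4-fold or 8-fold. A gene that did not pass may thus still differ by a small fold. Replicates differed by more than sampling noise (chi-square per degree of freedom 32.8 to 121). The series text calls the animals biological replicates.

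The 8 genes and all lists were chosen with earlier results of these data known. Named genes were the 8, up to 4 called genes of the smallest p per list (2 where none was called), the nearest tested neighbour on each side, and the 5 most alike genes (mean of 10 CPM or more, SD of deviations 0.5 or more). One gene taken by this rule is not reported here. Alternatives were other scalings, filters and tools (DESeq2 1.42.0, limma-voom 3.58.1), RSEM and unstranded counts, a replicate block and leaving out each library.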

Additional observations from a re-analysis of the deposited data

How the results depend on the processing

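The number of genes called was 947 with all libraries and main settings, 1702 without a filter on low counts, and 395 (without WT replicate 2) to 1590 (without SCADD replicate 3) when 1 library was left out. Of the 8 genes, 2 were called with main settings, 1 without a filter, and 0 (without SCADD replicate 3) to 3 (without SCADD replicate 2) when 1 library was left out. Of the further zinc genes, 0 were called, and 0 to 1 when 1 library was left out. The cause of these shifts was not tested. Upper-quartile scaling called 470 genes higher and 482 lower, against 569 higher and 378 lower with TMM. No setting moved the median of all genes by over 0.1 on the log2 scale. Slc39a14, near 0, changed sign under upper-quartile scaling (-0.036), limma-voom (-0.0097), the replicate block (-0.0012) and without SCADD replicate 1 (-0.04), SCADD replicate 2 (-0.14), WT replicate 1 (-0.09) or WT replicate 2 (-0.008), with 0.18 the highest value, without SCADD replicate 3. Mt1 and Mt2 kept their direction in all 16 alternatives. The labels do not say that replicate numbers pair animals, and same-numbered libraries deviated together only weakly (r of 0.06, 0.04 and 0.11). With the number as a replicate block, 1148 genes, 2 of the 8 genes and 0 of the further zinc genes were called. Levels in TPM from unique reads over RSEM lengths were higher for each of the 8 genes in both groups, such as 54.8 in SCADD and 689 in WT for Mt2. Over the 16 alternatives, the lists gave 1 to 4 higher and 0 to 1 lower genes for copper, 0 to 6 and 0 to 1 for zinc enzymes, 0 to 3 and 1 to 3 for MTF1 targets, 1 and 0 to 2 for glucocorticoids, 1 to 5 and 0 to 4 for the acute phase, 0 to 2 and 1 to 3 for fasting, and 0 to 3 and 0 to 2 for handling. Depth limits the scarce genes: Mt2 rests on 122 reads in its lowest library.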

Other observations

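Genes of tissue handling and the immediate early response were read beside the metallothioneins. Of 14 tested genes 2 rose and 2 fell in SCADD livers, beside 4.22% and 2.80% of all genes, with a median log2 fold change of -0.11. Jun, an immediate early transcription factor, had 26.0, 10.9 and 15.1 CPM in SCADD livers and 6.80, 5.51 and 5.18 CPM in WT livers (log2 fold change 1.57 ± 0.29 SE, adjusted p = 0.013 by edgeR). Within the SCADD group replicate 1 was the highest and replicate 2 the lowest, as for Mt1 and Mt2. Klf6, another such factor, averaged 12.1 ± 2.40 CPM in SCADD and 7.63 ± 0.470 CPM in WT (SD, n = 3 each; log2 fold change 0.66, edgeR adjusted p = 0.0431). The heat shock gene Hspa1a had 0.245, 0 and 0.0620 CPM in SCADD livers and 0.579, 1.53 and 1.54 CPM in WT livers (log2 fold change -3.37 ± 0.70 SE, adjusted p = 0.0166 by edgeR). Btg2, an antiproliferative early response gene, averaged 4.51 ± 0.506 CPM in SCADD and 7.94 ± 1.04 CPM in WT (SD, n = 3 each; log2 fold change -0.82, edgeR adjusted p = 0.0186).

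These calls were not stable to the loss of 1 library. The Jun call was lost without SCADD replicate 3, WT replicate 2 or WT replicate 3 (edgeR adjusted p 0.0577 to 0.0656). The Klf6 call was lost without any one library but SCADD replicate 2 (0.0565 to 0.161), under upper-quartile scaling (0.0598), with limma-voom (0.0528) and with RSEM expected counts (0.0514), that of Hspa1a without WT replicate 2 or 3 (0.0608 to 0.0748) and with RSEM expected counts (0.0868), and that of Btg2 without SCADD replicate 1 or WT replicate 3 (0.0801 to 0.0898). Leaving out 1 library gave 0 to 2 higher and 0 to 2 lower genes of this list.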
